A study of Mus musculus with 4 samples.

Results

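The genes described here are 37 genes of the cell cycle, measured in liver RNA of mice whose cecum was infused with a short-chain fatty acid or with saline. They were chosen by name, with earlier results of these data known. The list holds genes that copy DNA, cyclins and their kinases, regulators of mitosis, and proteins of the spindle and of cell division. Members were the listed symbols with at least 1 probe set that GEO's platform annotation assigns to that symbol alone, and probe sets of a symbol were averaged. This gave 30 of the 37 genes, out of 18820 genes measured in this way. Tyms, Ccne2, Foxm1, Ube2c, Kif20a and Nusap1 were found only on probe sets shared with another symbol, and Ccnb1 was not named in the annotation used here.

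The study compared 4 pools of liver RNA, each hybridised to 1 whole-transcript array. All mice were male C57Bl/6J animals of 16 to 17 weeks, kept for 6 weeks on a semi-synthetic diet with palm oil and fitted with a permanent cecum catheter. Conscious mice, briefly fasted in the morning, received phosphate-buffered saline (control, 6 mice), sodium [1-13C]acetate (6 mice), sodium [2-13C]propionate (6 mice) or sodium [2,4-13C2]butyrate (4 mice). The acids were infused at 0.3 M and 0.2 ml/h, a dose of 2.4 mmol/h/kg, for 6 h before the liver was collected. Short-chain fatty acids are made by gut bacteria from dietary fibre, and the 3 acids differ in the length of their carbon chain. RNA was pooled at 500 ng per mouse, so each value is the average of a group's livers and the spread between mice cannot be seen. With 1 array per group no test is possible, and every difference below is a log2 ratio of 2 arrays without a replicate check. In whole liver, more cells in the cell cycle and more RNA per cycling cell cannot be told apart.

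A cell that divides passes through G1, copies its DNA in S phase, and segregates its chromosomes in mitosis. Cyclins bind and activate cyclin-dependent kinases, and the genes of S phase and of mitosis are transcribed in successive waves, the former under E2F factors and the latter with the help of B-Myb and FoxM1. In the adult liver nearly all hepatocytes rest outside the cycle, so the transcripts of mitosis are normally scarce there. They rise when liver regenerates, and immune, endothelial and stromal cells of the organ can divide as well.

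The tissue label held in all 4 pools, since 11 of 11 measured hepatocyte markers were well above background and their median log2 ratio to control lay between -0.0032 and 0.0079. The arrays had medians between 5.11 and 5.12 on the log2 scale. The olfactory, vomeronasal and taste receptor genes (1195 genes), which liver does not use, served as the background of the array. Their 95th percentile was 4.16 in the control pool, 4.17 with acetate, 4.18 with propionate and 4.16 with butyrate. The pools also differed in markers of other tissues. For scale, with acetate, propionate and butyrate 0.696%, 0.776% and 0.728% of all genes were at least 1.5-fold above control. By the same amount, 0.494%, 0.489% and 0.616% were below it. Skeletal muscle markers were lower with butyrate (median -2.32, 10 of 11 at least 1.5-fold lower). Of 9 exocrine pancreas markers, 8 were at least 1.5-fold lower with acetate, 7 with propionate and 0 with butyrate. All 9 were below control with each acid, with medians of -0.95, -0.66 and -0.33. Of 15 intestinal epithelium markers, 6 were at least 1.5-fold higher with butyrate and 4 were below control, with a median of 0.35, and the largest ratios were those of Muc2 (2.98) and Lypd8 (2.97).

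In every pool, 25 of the 30 members (83.3%) lay above the background, against 68.8% of all genes in the control pool, 69.4% with acetate, 69.7% with propionate and 68.7% with butyrate. The other members, Melk, Bub1, Top2a, Kif11 and Prc1, were below it in every pool as averages of their probe sets. For the last 3 this depends on the averaging. Kif11, the kinesin that pushes spindle poles apart, had a probe set at 4.99, 5.15, 5.12 and 5.10 (control, acetate, propionate, butyrate), above background, and another at 2.57, 2.48, 2.73 and 2.25. Taking the highest probe set of each gene, 27 members were above background in every pool, Kif11 and Top2a among them. The median gene had a mean level of 5.55, which 13 members reached, and 17 lay below it. As averages, the 12 measured replication and G1 genes were above background in every pool, as were 13 of the 18 measured genes of mitosis.

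**Figure D1:**
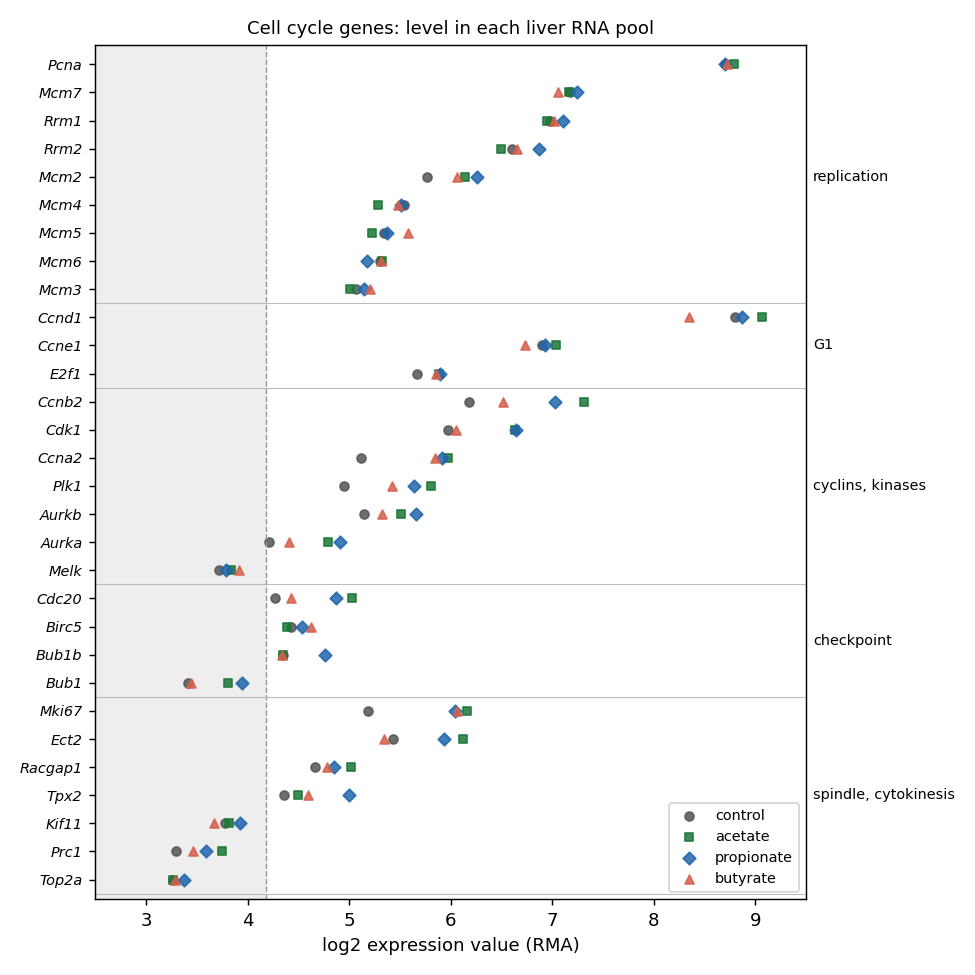
Level of each measured cell cycle gene in the 4 liver RNA pools, on the log2 scale of the deposited values (1 array per pool, no error bars). The grey area is the range up to the receptor genes' 95th percentile, at most 4.18. The pools overlap for most replication genes, while for Ccna2, Plk1 and Mki67 the control point stands to the left of the 3 acid points.

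Against control, 7 of 30 members were at least 1.5-fold higher with acetate (0.58 on the log2 scale), 8 with propionate and 2 with butyrate, and 0 were lower by that amount with any acid. That is 23.3%, 26.7% and 6.67% of the members. The members were chosen with earlier results of these data known, so these shares describe the list and are not a test. Of all genes, 0.696%, 0.776% and 0.728% were at least 1.5-fold higher in the same 3 comparisons, and 0.494%, 0.489% and 0.616% lower. Among the receptor genes 0.167%, 0.335% and 0.335% were higher and 0.251%, 0.335% and 0.167% lower. The median log2 ratio of the members was 0.18 with acetate, 0.24 with propionate and 0.13 with butyrate, and the medians of all genes were 0.0020, -0.0075 and -0.0029. The 3 comparisons share the control array, so a departure of that array enters all of them. With the other 3 pools averaged as reference, other acids included, 1 member passed with acetate (Ccnb2, 0.74), 0 with propionate and 0 with butyrate.

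The members that passed belonged to 3 role groups: cyclins and kinases of S phase and mitosis, the spindle checkpoint and anaphase, and chromosome structure, spindle and cytokinesis. Of the 18 measured genes in those groups, 7 passed with acetate, 8 with propionate and 2 with butyrate, with medians of 0.42, 0.52 and 0.17. Of the 12 measured replication and G1 genes, 0 passed with any acid. Of all genes, 0.696%, 0.776% and 0.728% were higher, so a count of 0 of 12 does not set these genes apart. The difference between the groups was not tested.

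**Figure D2:**
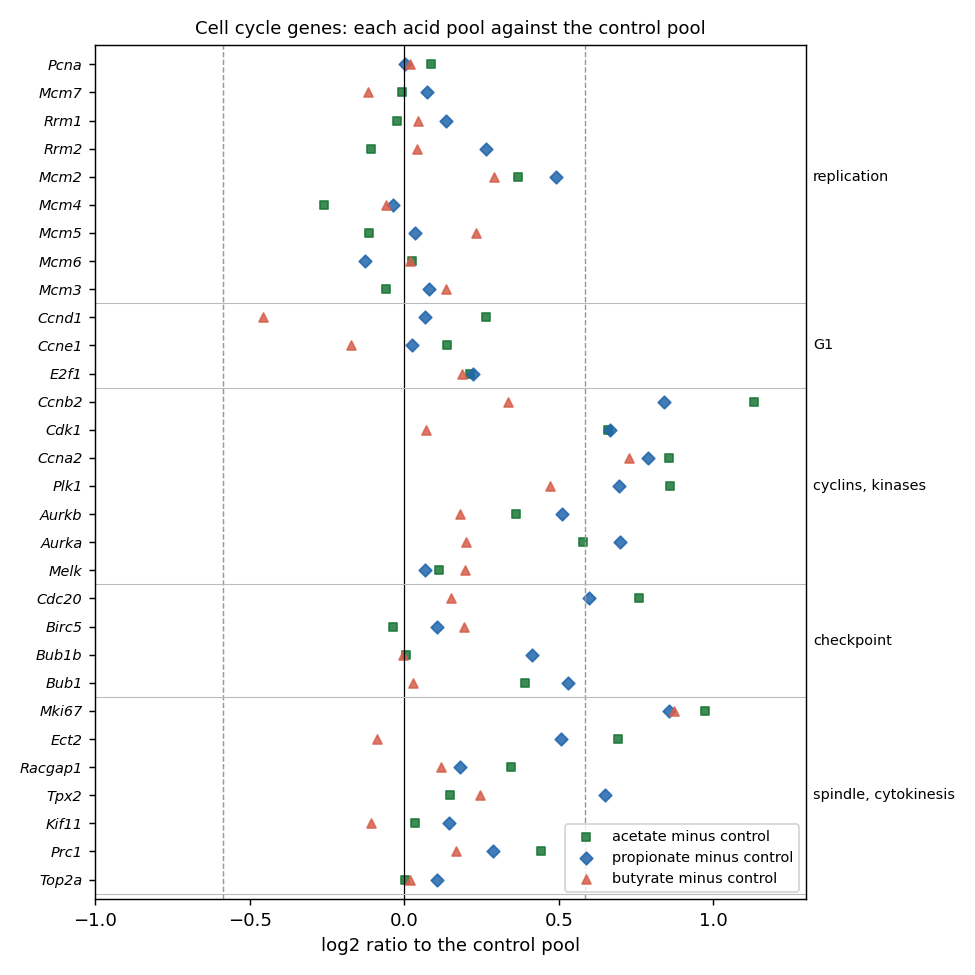
Log2 ratio of each acid pool to the control pool for each measured member, by role (1 array per pool). Dashed lines mark 1.5-fold. The acetate and propionate points of Ccnb2, Cdk1, Ccna2, Plk1, Cdc20 and Mki67 lie to the right of the line. The replication genes lie between the lines, with Mcm2 furthest to the right at 0.37, 0.49 and 0.29.

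Among the role groups, cyclins and kinases of S phase and mitosis held the most members past 1.5-fold with acetate and with propionate. Of 9 listed, 7 were measured. Passing 1.5-fold were 4 with acetate, 5 with propionate and 1 with butyrate, and the medians were 0.66, 0.69 and 0.20. Over all genes, 0.696%, 0.776% and 0.728% were higher by that amount. Ccnb2 encodes cyclin B2, a partner of Cdk1 in mitosis. It stood at 6.18 in the control pool, 7.31 with acetate, 7.02 with propionate and 6.52 with butyrate. The control pool was lowest and the acetate pool highest, which made Ccnb2 2.19-fold higher with acetate, 1.79-fold with propionate and 1.26-fold with butyrate. Its acetate ratio was the highest of any member in these comparisons.

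Cdk1, the kinase that drives entry into mitosis, had log2 levels of 5.98 (control), 6.64 (acetate), 6.65 (propionate) and 6.05 (butyrate). The acetate and propionate pools were alike, 1.58-fold and 1.59-fold above control, and the butyrate pool stayed near control at 1.05-fold. Ccna2, the cyclin of S phase and early mitosis, stood at 5.12, 5.98, 5.91 and 5.85 in the same order of pools. Here the 3 acid pools lay close together, 1.81-fold, 1.73-fold and 1.66-fold above control. Plk1, a kinase of centrosomes, spindle and division, was at 4.95, 5.81, 5.64 and 5.42. Its ratio was 0.86 with acetate, 0.69 with propionate and 0.47 with butyrate, so butyrate lay between control and the other acids.

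The aurora kinase gene Aurka, which acts at the spindle poles, was at 4.21 in the control pool, 4.79 with acetate, 4.91 with propionate and 4.41 with butyrate. The control value sat just above the background of 4.16. Aurka was the member closest to the threshold from below, 1.49-fold with acetate, and it passed with propionate at 1.62-fold. Aurkb, the aurora kinase of the chromosomal passenger complex, had ratios of 0.36, 0.51 and 0.18. Melk lay below the background in all pools and had ratios between 0.067 and 0.20.

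Genes of the spindle checkpoint and of the anaphase-promoting complex were less uniform, with 4 of 5 measured. Cdc20 activates the anaphase-promoting complex, which marks cyclin B and securin for destruction. Its levels were 4.27 (control), 5.03 (acetate), 4.87 (propionate) and 4.42 (butyrate). Cdc20 was 1.69-fold higher with acetate and 1.51-fold with propionate, from a control level close to background, and 1.11-fold with butyrate. The propionate value was the one closest above the threshold, and with cyclic loess between the arrays it was 0.55 and no longer passed. Birc5, the survivin of the chromosomal passenger complex, was at 4.43, 4.39, 4.54 and 4.62, within 1.5-fold of control in each comparison. The checkpoint kinase genes differed from each other with acetate, where Bub1 had a ratio of 0.39 and Bub1b of 0.0041, and with propionate they stood at 0.53 and 0.41. Bub1 was below background in each pool.

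Of 9 genes for chromosome structure, the spindle and cytokinesis, 7 were measured, and 2 passed with acetate, 2 with propionate and 1 with butyrate. Over all genes, 0.696%, 0.776% and 0.728% were at least 1.5-fold higher. Mki67 encodes Ki-67, which coats mitotic chromosomes and is the common marker of proliferating cells. It stood at 5.19 in the control pool, 6.16 with acetate, 6.04 with propionate and 6.06 with butyrate. The 3 acid pools were again close to one another and apart from control, by 1.96-fold, 1.81-fold and 1.83-fold. Ect2, the exchange factor that starts the cleavage furrow by activating RhoA, was at 5.43, 6.12, 5.94 and 5.34. It passed with acetate (1.62-fold), lay at 1.42-fold with propionate, and with butyrate its ratio was -0.087.

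Tpx2, which activates aurora A and nucleates spindle microtubules, was at 4.35 in the control pool, 4.50 with acetate, 5.00 with propionate and 4.60 with butyrate. The propionate pool alone stood off, 1.57-fold above control. Racgap1, the partner of Ect2 at the midzone, had ratios of 0.35, 0.18 and 0.12. Top2a, Kif11 and Prc1 have several probe sets each, and their averages mix a probe set at background with another that is higher. For Prc1, the midzone bundling protein, the higher probe set was at 3.42, 4.29, 4.09 and 3.83, above background with acetate and below it in the other pools. Its ratio with acetate was 0.87, against 0.44 for the average, and both set acetate against a control value that was not above background. For the topoisomerase Top2a the highest probe set was at 4.46, 4.57, 4.86 and 4.84, with ratios of 0.11, 0.40 and 0.38. The average of its 3 probe sets gave 0.0040, 0.11 and 0.019, so these genes are uncertain as measured. Prc1 and Top2a were singled out after their values had been seen.

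Of 10 listed replication genes, 9 were measured, and all 9 lay within 1.5-fold of control with each acid. So did 18596 (acetate), 18582 (propionate) and 18567 (butyrate) of all 18820 genes, so this count does not set the replication genes apart. The medians of the 9 were -0.024 (acetate), 0.074 (propionate) and 0.041 (butyrate). Pcna, the sliding clamp of the DNA polymerases, stood at 8.70, 8.79, 8.70 and 8.72. Mcm7, a subunit of the replicative helicase, was at 7.17 in the control pool, 7.16 with acetate, 7.24 with propionate and 7.05 with butyrate. The pools of both genes differed by at most 0.19. The largest ratios in the group belonged to Mcm2, another helicase subunit, at 0.37, 0.49 and 0.29, and it was picked for those ratios. The helicase genes Mcm3, Mcm4, Mcm5 and Mcm6 lay between -0.26 and 0.23. The ribonucleotide reductase genes Rrm1 and Rrm2, which supply deoxyribonucleotides, lay between -0.11 and 0.27.

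Among the G1 genes, Ccnd1, the cyclin D1 that couples growth signals to the cycle, was at 8.80 in the control pool, 9.06 with acetate, 8.87 with propionate and 8.34 with butyrate. The butyrate pool was lowest, 1.37-fold below control. Ccne1, the cyclin of the G1 to S transition, had levels of 6.90, 7.04, 6.93 and 6.73 and also stood lowest with butyrate. E2f1, a transcription factor of S phase genes, had ratios of 0.21, 0.22 and 0.19.

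The upstream sequences of members that passed and of members that did not are shown because mitotic and replication genes are known to be timed through different promoter elements. The cell cycle homology region, or CHR, is bound by the MuvB complexes that time mitotic genes, the CCAAT box by NF-Y, and E2F sites by E2F factors. RefSeq promoter windows (GRCm38.p6, 250 bases before to 50 bases after a start site) were found for 29 of the 37 listed genes, 3 of them with more than 1 window, 32 windows in all. Windows were searched on both strands for TTTGAA or TTCGAA (CHR), CCAAT, and TTCCCGC or TTGGCGC (E2F). The last of these can overlap a CCAAT box when read on the opposite strand. Below are the 200 bases upstream of the start site of 4 members that passed, with matches of any of these motifs in capitals, on either strand (ATTGG and GCGCCAA are CCAAT and TTGGCGC read on the other strand). They lie on the minus strand at chr9:70421555-70421754 (Ccnb2), chr10:69352913-69353112 (Cdk1), chr4:118437344-118437543 (Cdc20) and chr7:135716380-135716579 (Mki67).
Ccnb2: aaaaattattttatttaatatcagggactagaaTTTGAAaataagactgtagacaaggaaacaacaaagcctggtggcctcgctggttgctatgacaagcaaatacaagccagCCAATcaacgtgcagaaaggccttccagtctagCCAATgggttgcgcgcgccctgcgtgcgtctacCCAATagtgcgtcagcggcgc
Cdk1: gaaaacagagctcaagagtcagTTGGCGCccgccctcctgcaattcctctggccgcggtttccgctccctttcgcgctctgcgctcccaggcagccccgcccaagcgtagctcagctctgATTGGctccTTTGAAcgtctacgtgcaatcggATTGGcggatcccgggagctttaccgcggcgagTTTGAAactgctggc
Cdc20: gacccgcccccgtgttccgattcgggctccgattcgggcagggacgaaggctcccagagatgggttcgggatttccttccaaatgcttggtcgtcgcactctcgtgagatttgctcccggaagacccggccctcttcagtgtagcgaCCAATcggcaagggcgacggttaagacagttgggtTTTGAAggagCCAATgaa
Mki67: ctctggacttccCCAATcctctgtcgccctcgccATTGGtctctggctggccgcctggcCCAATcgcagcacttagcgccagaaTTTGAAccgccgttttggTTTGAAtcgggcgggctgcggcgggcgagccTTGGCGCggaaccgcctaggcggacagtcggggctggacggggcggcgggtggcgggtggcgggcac

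Cdk1 holds TTTGAA at -71 and -15 and Cdc20 at -18, counted in bases from the start site to the first base of the match. Ccnb2 holds it at -167 and again at 5 bases into the transcript, beside CCAAT boxes at -87, -54 and -21. Mki67 has it at -116 and -98, with CCAAT boxes at -188, -166 and -141. E2F letters occur here as well, at -178 in Cdk1 and at -67 in Mki67. For comparison, 3 replication genes that lay within 1.5-fold of control are shown in the same way, at chr8:75109309-75109508 (Mcm5, plus strand), chr1:128359706-128359905 (Mcm6, minus strand) and chr7:102441495-102441694 (Rrm1, plus strand).
Mcm5: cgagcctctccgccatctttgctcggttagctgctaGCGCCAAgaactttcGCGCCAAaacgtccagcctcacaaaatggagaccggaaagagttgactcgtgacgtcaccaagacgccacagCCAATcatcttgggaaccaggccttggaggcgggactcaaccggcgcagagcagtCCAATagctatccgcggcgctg
Mcm6: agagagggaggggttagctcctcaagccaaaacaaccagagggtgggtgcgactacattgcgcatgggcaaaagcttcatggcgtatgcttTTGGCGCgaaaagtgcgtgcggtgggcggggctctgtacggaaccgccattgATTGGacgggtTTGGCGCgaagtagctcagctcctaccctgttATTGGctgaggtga
Rrm1: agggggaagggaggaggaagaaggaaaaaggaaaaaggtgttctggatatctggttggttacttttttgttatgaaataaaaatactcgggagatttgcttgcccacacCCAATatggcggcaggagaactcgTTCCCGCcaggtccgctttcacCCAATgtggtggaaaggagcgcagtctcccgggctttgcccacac

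Mcm5 and Mcm6 each hold the E2F letters at 2 places, at -164 and -149 in the former and at -109 and -46 in the latter, and Rrm1 at -67. None of these 3 windows holds the CHR letters. The 3 genes are examples, and other replication genes differ from them. Mcm2 holds CHR letters and no E2F letters, a window of Mcm7 holds both, and Pcna and Rrm2 hold neither. Over all 32851 windows of the RefSeq table, 19.2% held CHR letters, 37.4% CCAAT, 6.81% E2F letters and 7.52% both CHR letters and CCAAT. In the windows of the mitotic groups, CHR letters were in 16 of 20 and E2F letters in 5 of 20. In the 10 replication windows the counts were 2 for CHR and 6 for E2F, and CCAAT was in 9. All 8 windows of the members that passed with any acid (7 of 9 such genes had a window) held both CHR letters and CCAAT, as did 9 of the 20 windows of measured members that did not pass. The members that passed all belong to the mitotic groups, while those 20 windows include replication genes, so this contrast is also one of role. Within the mitotic groups, Bub1, Bub1b, Kif11, Prc1, Racgap1 and Top2a did not pass and also held both. E2F letters were in 4 of those 8 windows and in 6 of those 20. Windows of 1 gene can overlap, and a match of letters is a description and shows no binding.

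**Figure D3:**
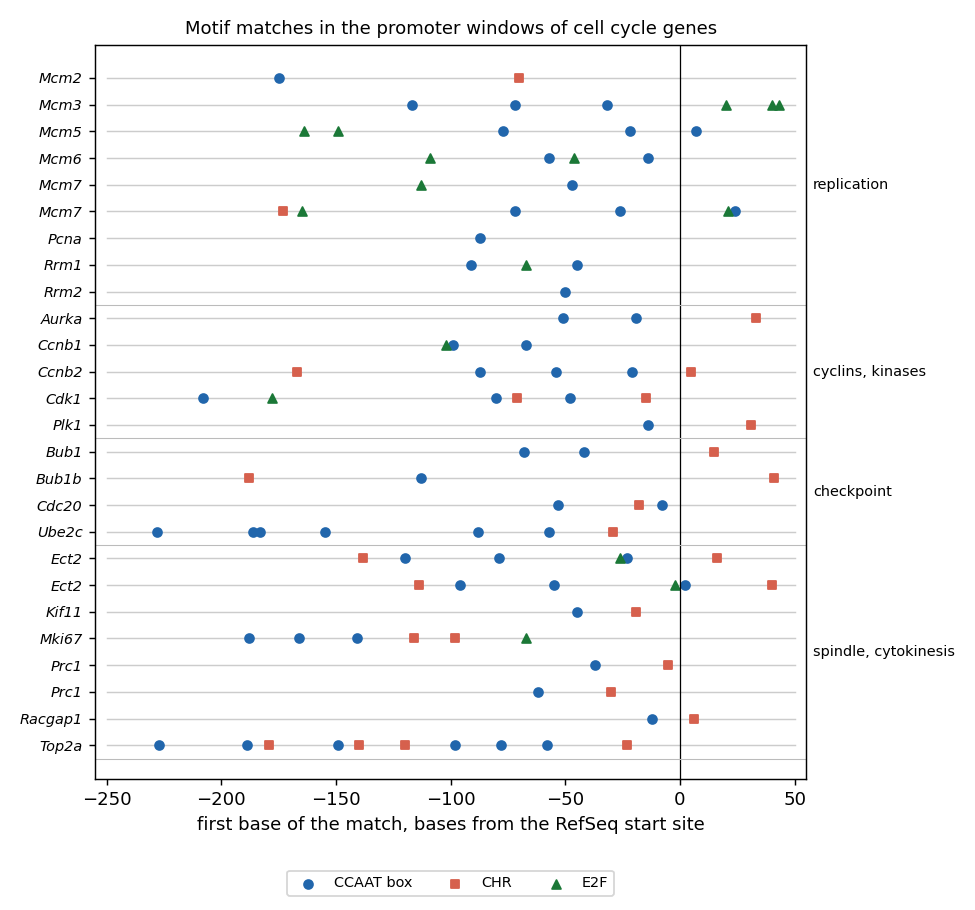
Position of each motif match in the promoter windows of cell cycle genes, in bases from the RefSeq start site (a row per window, squares CHR, circles CCAAT box, triangles E2F). Only windows with a match are drawn. Squares occur in 16 of 20 mitotic and 2 of 10 replication windows, and triangles in 5 and 6 of them.

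Other genes of the same pathway were followed through 4 further lists, which were also chosen with earlier results of these data known. Of 54 measured mitosis genes outside the members, 4 were at least 1.5-fold higher with acetate, 2 with propionate and 0 with butyrate. By that amount, 0 were lower with any acid. The shares of all genes were 0.696%, 0.776% and 0.728% higher and 0.494%, 0.489% and 0.616% lower. The medians of the 54 mitosis genes were 0.18, 0.16 and 0.055. Above control by any amount were 44, 45 and 34 of the 54, where 9511, 9004 and 9227 of all 18820 genes were. In the control pool 28 of the 54 were above background, and 29 in each acid pool, so many of these ratios are between values at the background level. The cortical scaffold Anln was at 3.57 in the control pool, 4.32 with acetate, 4.20 with propionate and 4.15 with butyrate, above the background with acetate and propionate and below it in the other pools. The tubulin-binding protein Stmn1 stood at 6.79, 7.47, 7.33 and 7.12, with ratios of 0.68, 0.54 and 0.33. The spindle protein Ckap2l had ratios of 0.49, 0.76 and 0.27, and the kinetochore subunit Spc25 of 0.63, 0.38 and -0.24. Cdca3, a target of the anaphase-promoting complex, passed with acetate as well (0.63).

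Of 29 further replication genes, 0 passed in either direction with any acid. Of all 18820 genes, 18596, 18582 and 18567 did not pass either. The medians of this list were -0.028, -0.016 and -0.0061. The largest ratios were those of Dbf4, the activator of the Cdc7 kinase, at 0.55 with acetate, and of Gins3 at -0.44 with butyrate. Chaf1a (0.40) and Fen1 (-0.39) followed, both with propionate. The control value of Chaf1a (4.05) and the propionate value of Fen1 (3.86) were not above background. Among 20 other G1 cyclins, kinases and E2F factors, 1 passed with acetate and 0 with propionate or butyrate. The shares of all genes at least 1.5-fold higher were 0.696%, 0.776% and 0.728%. The gene that passed was E2f8, an E2F repressor, at 7.02, 7.68, 7.25 and 7.25. Myc stood at -0.36 with butyrate, E2f2 at 0.41 and Ccnd2 at 0.35 with acetate.

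Inhibitors of the cycle, pocket proteins and p53 targets (21 measured) held 1 higher gene with acetate, 1 with propionate and 0 with butyrate. The shares of all genes at least 1.5-fold higher were 0.696%, 0.776% and 0.728%. The kinase inhibitor gene Cdkn1a (p21), which halts the cycle, was at 8.49 in the control pool, 9.06 with acetate, 8.85 with propionate and 8.36 with butyrate, 0.57 above control with acetate and so just short of 1.5-fold. Cdkn2c, an inhibitor of Cdk4 and Cdk6, had ratios of 0.36, 0.37 and -0.20. The 2 that passed were Chek2 with acetate (0.60), below background in every pool, and the phosphatase Cdkn3 with propionate (0.65). The control value of Cdkn3 (4.11) was not above background either.

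**Figure D4:**
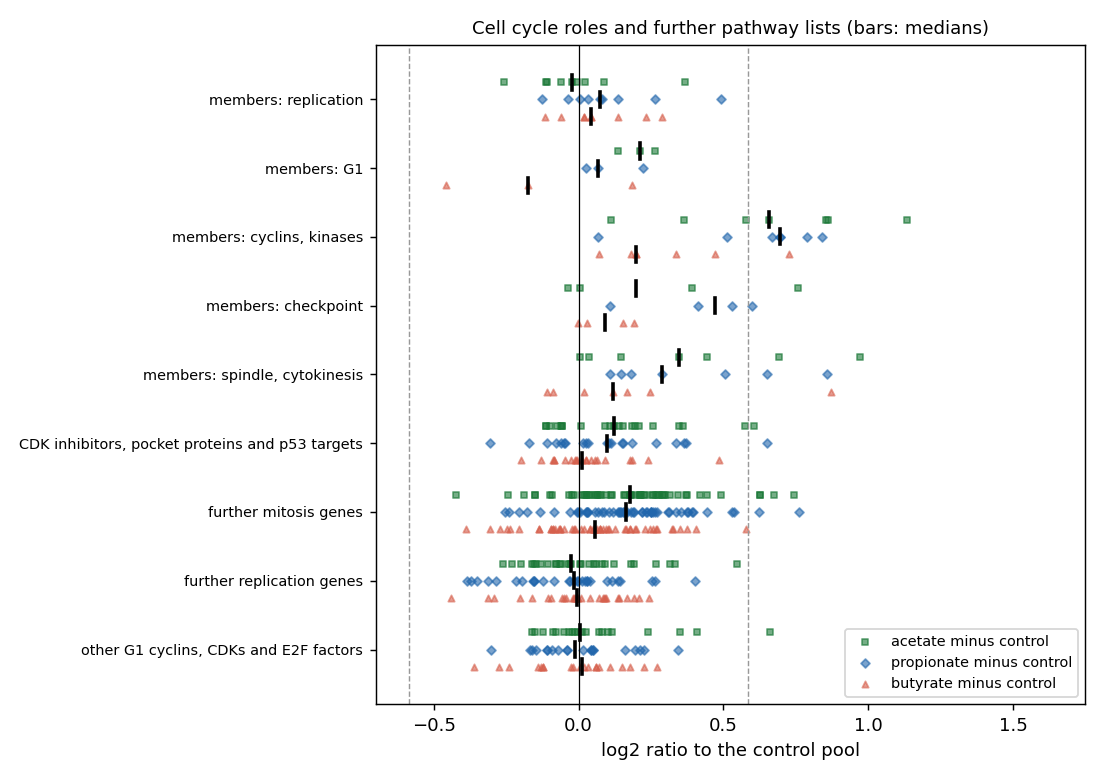
Log2 ratios to the control pool for the members by role and for the 4 further pathway lists (points are genes, black bars medians, 1 array per pool). Dashed lines mark 1.5-fold. The medians of the cyclin and kinase group stand at 0.66, 0.69 and 0.20, and those of the further replication list near 0.

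The acids were compared directly, at the same molar rate and time, in 3 pairs that do not use the control array. Between propionate and acetate 0 of 30 members differed by 1.5-fold (over all genes 0.383% were higher and 0.213% lower, over receptor genes 0.418% and 0.0837%), with a median of 0.046 and a range from -0.29 (Ccnb2) to 0.50 (Tpx2). With 1 array each there is no interval for these differences, so they do not show that the 2 acids act alike. For scale, the central 95% of all genes lay between -0.32 and 0.34 in that pair.

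With butyrate, the acid with the longest chain, some members were lower than with the other acids. Against acetate 5 of 30 members (16.7%) were at least 1.5-fold lower and 0 higher, where all genes gave 0.956% and 0.914% and receptor genes 0.167% and 0.0837%, and the member median was -0.11. They were Ccnb2 (1.74-fold lower), Ect2 (1.72-fold), Ccnd1 (1.65-fold), Cdc20 (1.52-fold) and Cdk1, just past the threshold with a log2 ratio of -0.59. With cyclic loess Cdc20 was at -0.58 and no longer passed, and with a probe set that Ccnd1 shares with another symbol averaged in, Ccnd1 was at -0.48 and no longer passed. Against propionate 2 members (6.67%) were lower, Ect2 and Cdk1 at 1.51-fold each, and 0 higher, where all genes gave 0.845% and 0.425%, receptor genes 0.418% and 0.251%, and the member median was -0.19. By contrast Mki67 and Ccna2 differed little between the acids, with ratios of butyrate to acetate of -0.10 and -0.13. The butyrate pool held RNA of 4 mice, fewer than the others, and was the pool with 10 of 11 muscle markers lower and 6 of 15 intestinal markers higher than control.

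**Figure D5:**
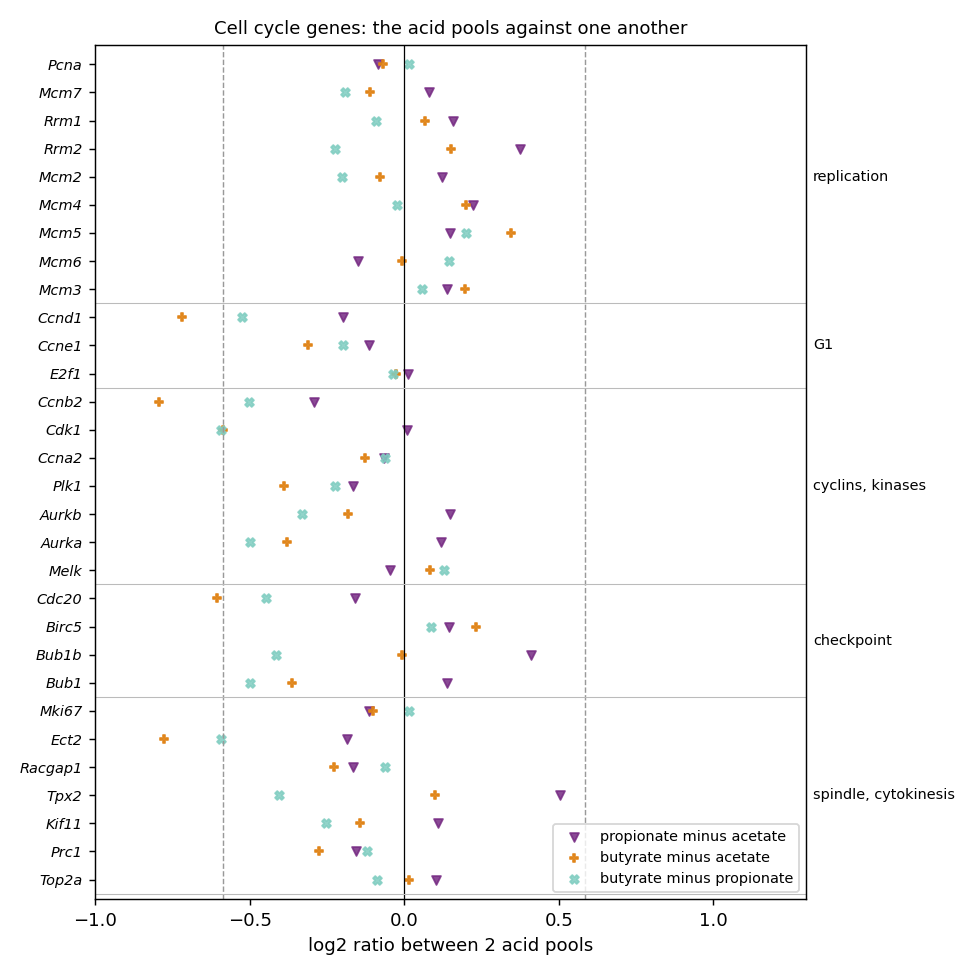
Log2 ratio between the acid pools for each measured member (1 array per pool). Dashed lines mark 1.5-fold. Points of butyrate minus acetate for Ccnb2, Ect2, Ccnd1, Cdc20 and Cdk1 lie at or beyond the left line, and no point of propionate minus acetate reaches either line.

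Markers of other cell types also differed between pools, and their part in the results above was not tested. Stellate cell and fibroblast markers, all 11 above background in each pool, had a mean log2 level of 7.18 in the control pool, 7.63 with acetate, 7.51 with propionate and 7.27 with butyrate. Of them 3, 1 and 0 were at least 1.5-fold above control, with medians of 0.45, 0.27 and 0.12. Of all genes, 0.696%, 0.776% and 0.728% were above it by that amount. The largest ratios of these markers were those of the matrix gene Dpt (1.07 with acetate) and of the collagens Col3a1 (0.72) and Col1a1 (0.66). The smallest with acetate were those of Lrat (0.15), Reln (0.14) and Hand2 (0.056), and Lrat was highest with butyrate (0.29). The list thus did not move evenly.

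Kupffer cell markers, all 14 above background, had mean levels of 8.52, 8.43, 8.90 and 9.11 in the same order of pools, and 0, 4 and 6 were at least 1.5-fold above control. The lowest butyrate ratios were those of Cd163 (0.24) and Clec4f (0.093), and both genes were below control with acetate and propionate. Of all genes, 0.696%, 0.776% and 0.728% were higher by 1.5-fold, and 0.494%, 0.489% and 0.616% lower. Markers of neutrophils and their precursors had mean levels of 5.72, 5.20, 5.58 and 6.34. They were lowest with acetate, where 4 of 13 were at least 1.5-fold below control, and highest with butyrate, where 5 were above it. Erythroid markers had medians of -0.050, 0.13 and 0.21, with 0, 0 and 3 of 9 higher. The 3 were Car1 (1.90), Slc4a1 (1.34) and Car2 (0.68) with butyrate, where the others lay between -0.095 (Klf1) and 0.51 (Rhag). Of the 13 lymphocyte markers 8 were above background in each pool and 0 passed 1.5-fold. For endothelium 1 of 10 markers passed and for cholangiocytes 1 of 6, Lyve1 (0.67) and Epcam (0.64), both with butyrate. Adipocyte markers had medians of 0.095, -0.22 and -0.37.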

How the data were processed

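The data are 4 columns of log2 expression values per probe set, 1 for each RNA pool. RMA, which corrects background, makes the distributions of the arrays alike and summarises probes, is named in the submitters' processing notes, and the deposited log2 values have that form (lowest 1.60, highest 13.7). Which RMA version and options were used was not given in the sources used here. After RMA, a change common to all genes of a pool cannot be seen. Of 35556 probe sets, 21218 had 1 symbol in GEO's platform annotation, 1881 several and 12457 none. Those with 1 symbol were averaged to 18820 genes.

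Differences are log2 ratios of 2 arrays, computed with Python 3.11.15, pandas 2.3.3 and numpy 2.4.6. A gene counted as higher or lower at 1.5-fold, over all genes and with no level filter. The number of arrays limits the precision. The calculation was tested on simulated data. Alternatives were a fold of 2, the mean of the other 3 pools as reference, cyclic loess (limma 3.58.1 in R 4.3.3), members at or above the median gene level, the 1 probe set with the highest mean, probe sets with several symbols, and the 99th percentile of the receptor genes. The members and lists were chosen with earlier results of these data known. Named with values in all pools are members at least 1.5-fold from control with any acid and the 2 with the highest mean level per role. Of each further list the rule names up to 4 genes with the largest ratio to control. Cdca3, the marker genes named singly and other genes outside the rule were chosen after their values were seen. Promoter sequences are those of RefSeq, assembly GRCm38.p6, matched by symbol, and the genome build behind the array was not given in the sources used here. Protein sequences were not used here.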

Additional observations from a re-analysis of the deposited data

Results flagged for a closer look

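A probe set that the annotation gives to both Ube2c, the ubiquitin-conjugating enzyme of the anaphase-promoting complex, and Tnnc2, the troponin C of fast muscle, was outside the measurement of members because it names 2 genes. It stood at 4.71 in the control pool, 5.86 with acetate, 5.85 with propionate and 5.54 with butyrate, which is 1.15, 1.14 and 0.83 above control on the log2 scale and past 1.5-fold with each acid. It was singled out as a signal above the control pool in data that the comparisons did not use. The skeletal muscle markers had medians of -0.070, 0.20 and -2.32 in the same 3 comparisons, and the share of the 2 genes in the signal was not tested.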

How the results depend on the processing

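No paired analysis was possible because each group has 1 array and the labels give no replicate numbers, and no array could be left out of a group. With a fold of 2, the members higher than control were 1 with acetate, 0 with propionate and 0 with butyrate, and the members lower with butyrate were 0 against acetate and 0 against propionate. With the average of the other 3 pools as reference, other acids included, the counts were 1, 0 and 0, and the butyrate median was -0.034. Restricted to the 13 members at or above the median gene level, 4 were higher with propionate, where fewer genes were tested, and the median of propionate against acetate was -0.067. Cyclic loess, the highest probe set and probe sets with several symbols each left the counts of higher and lower members within 1.5 times, and 7, 7 and 2 members passing with acetate, propionate and butyrate still passed with cyclic loess. The members lower with butyrate against acetate went from 5 to 4 with cyclic loess, without Cdc20, and to 4 with the shared probe sets, without Ccnd1. With the highest probe set the counts were 8, 9 and 2, Prc1 being added from a control value not above background. Members above background in every pool numbered 25, and 19, 27 and 29 with the 99th percentile, the highest probe set and the shared probe sets. The alternatives for the counts between acids were chosen after seeing the data. Ratios of members close to the receptor genes' level, such as Aurka and Cdc20 in the control pool, are limited by that background.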

Other observations

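The other members without a probe set of their own were read from shared probe sets, whose signal cannot be given to 1 gene. The probe set of Foxm1 and Tex52, where FoxM1 is a transcription factor of mitotic genes, stood at 4.15, 4.30, 4.28 and 4.30 in the control, acetate, propionate and butyrate pools, near background in all. For Nusap1, a microtubule-bundling protein, and Oip5, the higher of 2 probe sets was at 4.41, 4.76, 4.88 and 4.49, and its ratios to control were 0.35, 0.47 and 0.08. The higher probe set of the thymidylate synthase Tyms and its pseudogene was at 6.45, 6.86, 6.59 and 6.59, a ratio of 0.40 with acetate. Both probe sets of the kinesin Kif20a and Cdc23 were within 1.5-fold of control and differed in sign, at 0.28 and -0.37 with acetate. The probe set of Ccne2 and Ints8 had ratios of 0.05, -0.37 and -0.23.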
